A study of Prunus persica with 20 samples.

Results

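Of the 26811 genes counted in young fruit of 4 accessions of peach (Prunus persica), 101 had a mean level in the peach TN11 far from that of every other accession: 62 were high in TN11 and 39 were low. Levels are CPM, the count of a gene per 1000000 counts of its library, averaged per accession, and they are not corrected for gene length. A gene counted as high when its TN11 mean was at least 2 CPM and at least 3 times the largest other mean, while the mean of the other peach, TN7, stayed under 3 times the larger nectarine mean. A gene counted as low when MN, Sunraycer and TN7 each had at least 2 CPM and TN11 had at most 1/3 of the smallest of them. The genes were thus chosen by their mean CPM in TN11 relative to the others, and the differences between TN11 and the others are given as a description and without a test.

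A nectarine is a peach without fruit hair: at the G locus the allele for a hairy skin is dominant, and fruit with only recessive alleles are smooth. The hairs are trichomes, outgrowths of epidermal cells that appear on the ovary wall before and around fruit set, the stage at which the fertilised ovary starts to grow. Accessions of a fruit tree differ at very many loci besides the one that sets the surface, so a gene that stands apart in 1 accession need not be tied to fruit hair.

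RNA was taken from fruit at fruit set and sequenced as poly(A) libraries made with a stranded kit. TN11 is a peach stated to be GG (5 libraries). MN, a mutant that arose from a peach and bears nectarines, is stated to be Gg although its fruit are smooth (5 libraries), and Sunraycer is a commercial nectarine stated to be gg (5 libraries). TN7 is a peach stated to be Gg (4 libraries). Each genotype class was held by few accessions, and GG by TN11 alone, so the G genotype of TN11 cannot be told apart from the rest of its background. Library totals lay between 14890206 and 24474843 counts. Within an accession, libraries correlated at 0.973 to 0.979 on average in TN11, and the lowest averages were 0.927 for Sunraycer 1 and 0.947 for TN7 5. The numbers are the replicate numbers of the labels. Nothing says whether replicates were separate trees or fruits, and the spread behind a p-value is that of these samples alone and may be technical. The gene identifiers could not be paired with gene names or products here, so the tissue could not be checked against marker genes, and no function is given for any gene. In whole fruit, fewer cells of a type and less RNA per cell cannot be told apart.

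The high genes reached a median of 17.9 CPM in TN11, against 1.10 CPM in MN, 1.82 CPM in Sunraycer and 1.29 CPM in TN7. The low genes had a median of 0.630 CPM in TN11, against 7.09 CPM in MN, 8.53 CPM in Sunraycer and 7.03 CPM in TN7. Most high genes were close to the limit: the level in TN11 was 3.02 to 234 times that of the nearest accession, with a median of 4.24, and 39 of 62 were under 5-fold, 10 at or above 10-fold and 6 at or above 20-fold. The low genes lay farther out, with a median ratio of the nearest accession to TN11 of 7.71, 21 of 39 at or above 5-fold and 12 at or above 10-fold.

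All 101 genes passed the filter on low counts and were among the 19360 genes fitted. High genes near 0 elsewhere passed it through TN11 alone. Among the high genes, 39 of 62 had every TN11 library above every other library, as did 1.98% of all tested genes. Among the low genes, 32 of 39 had every TN11 library below every other library, as did 0.971% of all tested genes. In a fit with edgeR over all genes, all 62 high genes were called higher in TN11 than in MN and 37 of 39 low genes lower, where 15% of tested genes were called (11.1% higher, 3.88% lower). Against Sunraycer 59 high genes were called higher and 39 low genes lower, where 18.3% of tested genes were called (8.49% higher, 9.85% lower). Against TN7 the counts were 58 and 36, where 4.34% of tested genes were called (2.78% higher, 1.55% lower). Of the high genes, 57 were called higher than in each other accession, as were 0.971% of tested genes, and of the low genes 36 were called lower than in each, as were 0.64%. The rule used the same contrasts, so these counts add nothing about the genes. The values just inside and outside the 3-fold limit lay close together. Prupe.6G258400.v2.1 (3.02-fold) and Prupe.1G509800.v2.1 (3.02-fold) were just inside on the high side, and Prupe.1G145900.v2.1 (2.98-fold) and Prupe.6G322500.v2.1 (2.96-fold) just outside. On the low side Prupe.3G236200.v2.1 (3.06-fold) and Prupe.3G219100.v2.1 (3.27-fold) were inside, and Prupe.8G127200.v2.1 (2.99-fold) and Prupe.1G092900.v2.1 (2.93-fold) outside. The limit set on TN7 left out another 5 genes that were high enough in TN11. One of them, Prupe.1G296700.v2.1, picked after its values were seen, had a mean of 12.7 CPM in TN11 and no count in MN, Sunraycer or TN7; a TN7 mean of 0 is not under 3 times a nectarine mean of 0, so the rule did not take it.

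**Figure D1:**
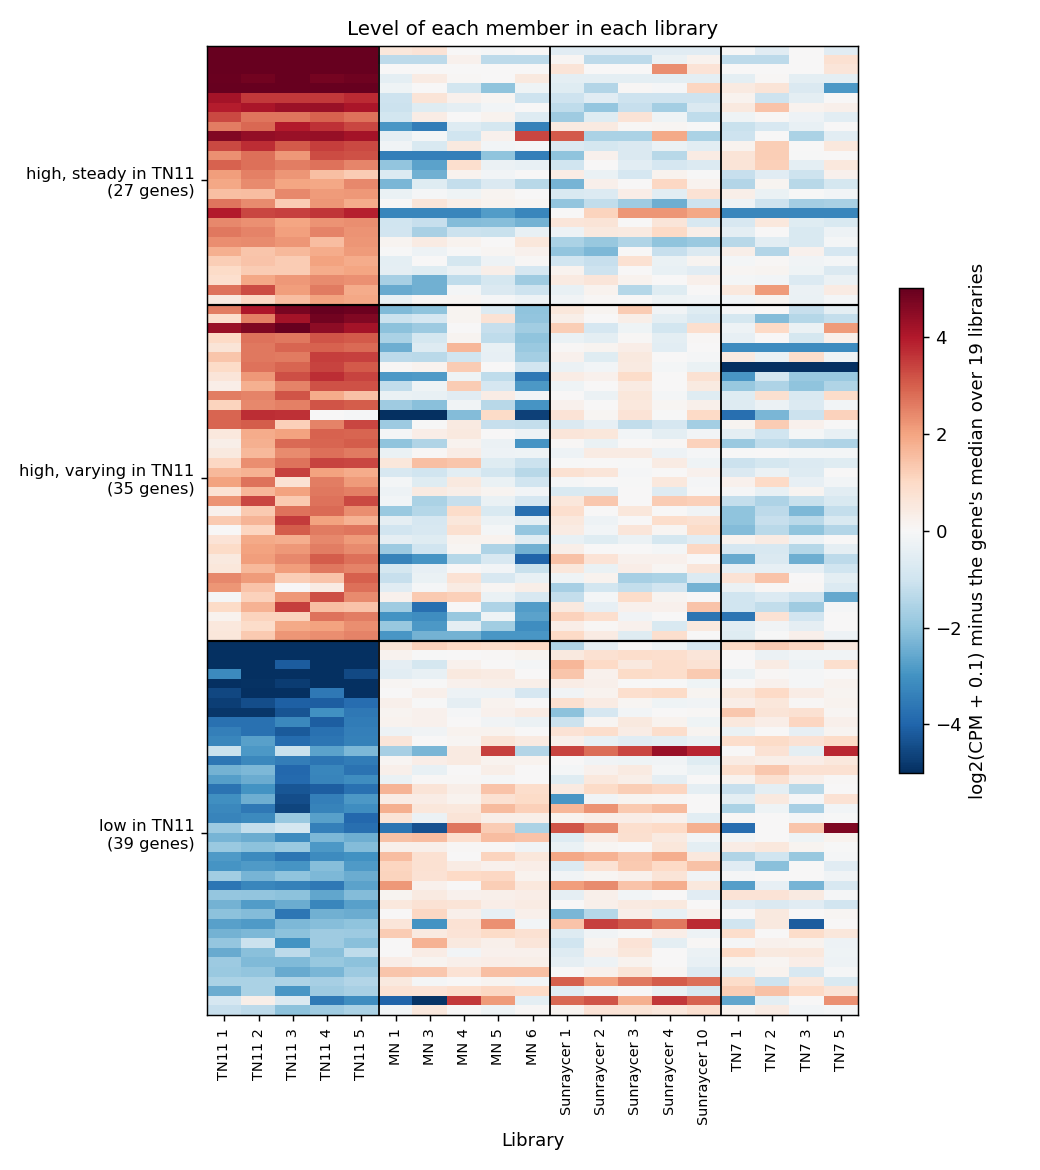
Each row is 1 of the 101 genes and each column 1 of 19 libraries; the colour gives log2(CPM + 0.1) minus the median of the gene over the libraries, limited to 5 in either direction. The high genes are split by the ratio of the highest to the lowest TN11 library (up to 3, steady, 27 genes; above 3, varying, 35 genes), and the low genes form the lowest block of 39.

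The genes with the largest ratios on the high side were almost without reads outside TN11. Prupe.5G032000.v2.1 had 16.5, 18.02, 16.8, 21.8 and 18.4 CPM in TN11 libraries 1 to 5, against 8 counts over the MN libraries, none in Sunraycer and 2 over the TN7 libraries. Its level in TN11 was 234 times that of MN, at least 579-fold higher than that of Sunraycer with a floor of 3 counts over the group, and 750 times that of TN7 (95% counting interval 207 to 6201). All TN11 libraries were alike, and no other library came near them.

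Prupe.2G112900.v2.1 had 14.5, 16.8, 18.5, 20.1 and 21.8 CPM in TN11 and at most 0.321 CPM in any other library. Prupe.1G094800.v2.1 had 9.37, 9.48, 9.34, 9.80 and 9.996 CPM in TN11, the narrowest spread among the high genes, against no count in MN, 10 counts over Sunraycer and 1 count over TN7. Both were detected in TN11 at a level that the deepest libraries of the other accessions did not approach. Prupe.8G018400.v2.1 had 26.1, 33.1, 26.4, 28.3 and 31.5 CPM in TN11 and 0 to 1.43 CPM in the 14 other libraries. Prupe.7G070100.v2.1 was lower, with 4.29, 3.94, 4.74, 3.83 and 3.98 CPM in TN11, against 6 counts over MN, none in Sunraycer and 1 over TN7. None of these genes overlapped between TN11 and another accession.

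Prupe.1G334000.v2.1 differed in that the other peach held a part of the level. It had 39.3, 43.7, 50.6, 51.3 and 43.7 CPM in TN11, against 1.13 to 2.497 CPM in MN, 0.572 to 1.49 CPM in Sunraycer and 3.53, 6.95, 2.82 and 3.00 CPM in TN7. Every TN7 library lay above every nectarine library and far under every TN11 library. The other accessions all had means under 0.5 CPM in 7 of the 62 high genes, and under 1 CPM in 18. The nearest other accession was Sunraycer in 31 high genes, TN7 in 17 and MN in 14.

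**Figure D2:**
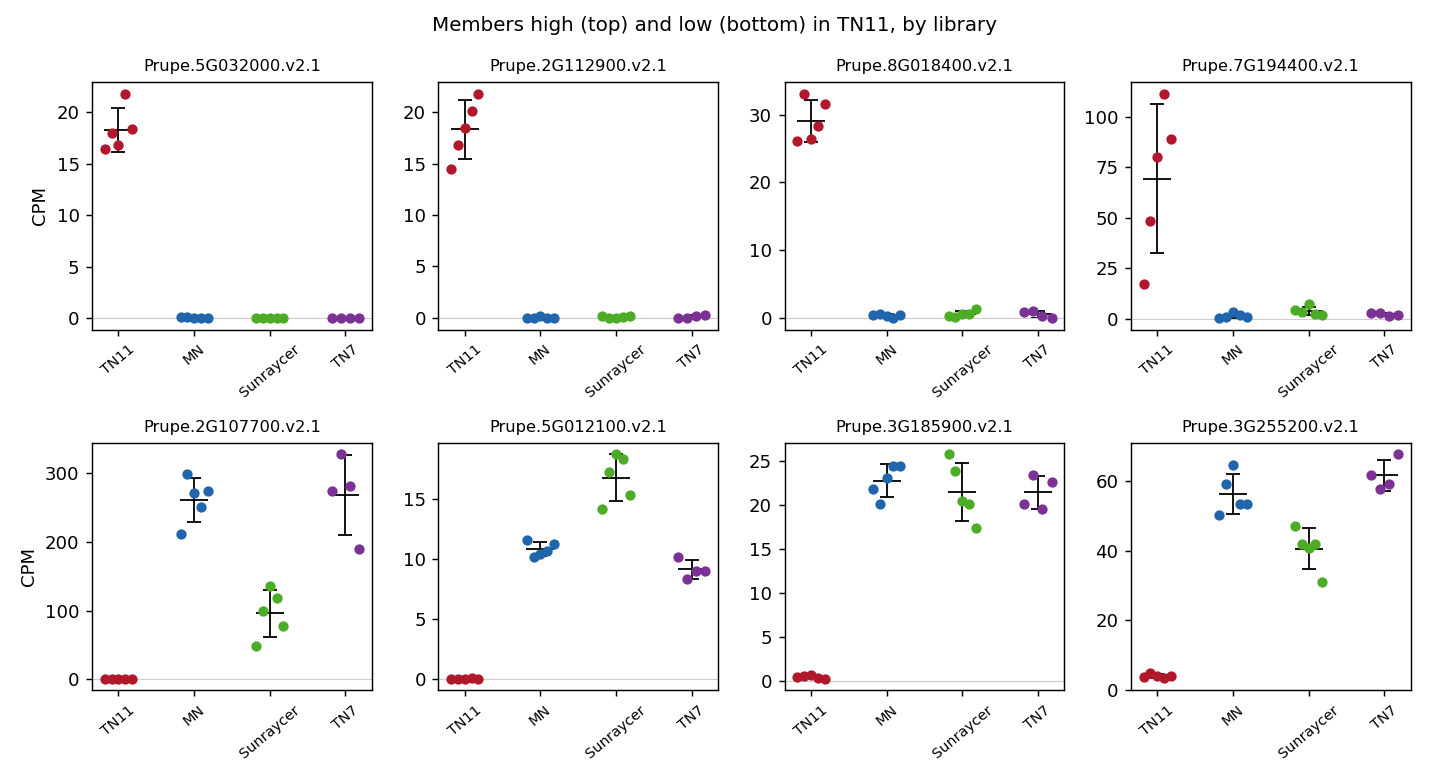
CPM by library for 4 genes high in TN11 (top) and 4 low in TN11 (bottom); points are libraries, and the bars show the mean and SD of each accession (5 libraries, 4 for TN7). No TN11 point meets a point of another accession, and Prupe.7G194400.v2.1 spreads from 17.1 to 112 CPM within TN11.

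On the low side TN11 had next to no reads for several genes that the other accessions shared. Prupe.2G107700.v2.1 had 2 counts in all over the TN11 libraries. It had 212, 299, 271, 250 and 274 CPM in MN, 48.5, 99.0, 136, 118 and 77.4 CPM in Sunraycer and 275, 328, 282 and 189 CPM in TN7. Sunraycer was below MN and TN7 in every library, yet its level was 5106 times that of TN11 (95% counting interval 1413 to 42169).

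Prupe.5G012100.v2.1 had 1 count over the TN11 libraries, against 10.2 to 11.6 CPM in MN, 14.2 to 18.7 CPM in Sunraycer and 8.33 to 10.2 CPM in TN7. Prupe.1G325500.v2.1 had 2 counts, both in TN11 3, against 1.76 to 3.88 CPM in MN, 4.70 to 10.7 CPM in Sunraycer and 2.82 to 6.15 CPM in TN7. Each accession but TN11 thus had reads for these genes in every library. Prupe.3G185900.v2.1 was measured above 0 in TN11, at 0.476, 0.563, 0.657, 0.392 and 0.237 CPM, against 20.04 to 24.4 CPM in MN, 17.4 to 25.7 CPM in Sunraycer and 19.5 to 23.4 CPM in TN7. The 3 other accessions overlapped one another in that gene, and TN11 overlapped none of them.

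Other low genes kept a clear level in TN11. Prupe.3G255200.v2.1 had 3.70, 4.94, 4.22, 3.62 and 4.03 CPM in TN11, against 50.1 to 64.5 CPM in MN, 31.1 to 47.0 CPM in Sunraycer and 57.6 to 67.6 CPM in TN7. Prupe.3G236200.v2.1 was just past the limit, with 54.6, 48.2, 28.6, 34.8 and 40.2 CPM in TN11 and 104 to 210 CPM elsewhere. The TN11 mean was under 0.5 CPM in 14 of the 39 low genes and under 1 CPM in 28. TN7 was the nearest accession in 16 low genes, Sunraycer in 15 and MN in 8.

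The high genes were divided in 2 by their spread within TN11. The ratio of the highest to the lowest TN11 library ran on across the limit used, from 2.87 just below it to 3.04 just above. In 35 of 62 the highest TN11 library was more than 3 times the lowest (56.5%), a spread that 811 of the 16390 tested genes with a TN11 mean of at least 2 CPM also had (4.95%). The other 27 were steady, with a median ratio of 1.56 between the highest and the lowest TN11 library, against 1.40 over those 16390 genes and 4.84 for the varying genes. The limit of 3 was chosen after the values were seen, and the split gets no test. The mean of these same TN11 libraries chose the high genes, and a few high libraries can raise that mean. The shares of 56.5% and 4.95% are thus not like for like. All 6 genes past 20-fold were steady.

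Among the varying genes, Prupe.7G194400.v2.1 had 17.1, 48.4, 80.3, 112 and 89.3 CPM in TN11 libraries 1 to 5, against 0.534 to 3.12 CPM in MN, 1.85 to 7.12 CPM in Sunraycer and 1.24 to 2.86 CPM in TN7. Prupe.8G125100.v2.1 had 2.28, 7.54, 23.5, 37.0 and 33.1 CPM in TN11 and 0.197 to 2.11 CPM elsewhere. In both, TN11 1 was the lowest TN11 library and still above every other library. Prupe.7G205200.v2.1 had 50.4, 107, 417, 303 and 322 CPM in TN11, against 13.3 to 88.5 CPM in MN, 45.8 to 98.2 CPM in Sunraycer and 11.2 to 19.95 CPM in TN7. There TN11 1 lay within the range of both nectarines, and the other TN11 libraries lay above it.

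Over the 35 varying genes, the median level was 12.01, 19.7, 24.6, 29.1 and 28.6 CPM in TN11 libraries 1 to 5. It was 1.54, 1.45, 4.92, 2.28 and 0.768 CPM in MN libraries 1, 3, 4, 5 and 6, between 3.07 and 4.29 CPM in the Sunraycer libraries and between 1.34 and 2.46 CPM in the TN7 libraries. TN11 1 was the lowest TN11 library in 27 of the 35 (77.1%, against 21.96% of all tested genes). TN11 4 was the highest in 20 (57.1%, against 14.1% of all tested genes). The same TN11 libraries chose and split these genes, so these shares are not like for like. The varying genes also moved together within MN, whose single libraries the split did not use. MN 4 was the highest MN library in 24 of 35 (68.6%, against 24.2% of all tested genes). MN 6 was the lowest in 19 (54.3%, against 13.0%). In the other accessions this was weaker. Sunraycer 3 was the highest Sunraycer library in 13 of 35 (37.1%, against 29.8%). TN7 5 was the highest TN7 library in 14 of the 33 with reads in TN7 (42.4%, against 25.0%). No Sunraycer or TN7 library was the lowest in more than 11 of these genes. Among the steady genes with reads in MN, MN 4 was the highest in 7 of 26. The genes of a library are not independent, so these shares describe these libraries.

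By its average correlation with the other TN11 libraries, TN11 1 lay within the range of the accession (0.977). By single genes it differed more: TN11 1 was the highest TN11 library in 29.3% of all tested genes, the others in 14.1% to 20.9%. Its total of 18895521 counts was the lowest of TN11. On the first direction of spread between libraries of the same accession, which held 39.7% of that spread, TN11 1 scored -0.227, inside the TN11 range of -0.516 to 0.5004. The part of depth or of that direction in the levels of the varying genes was not tested. Over the steady genes the medians in TN11 lay between 6.48 and 9.80 CPM, and over the low genes between 0.610 and 0.693 CPM.

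**Figure D3:**
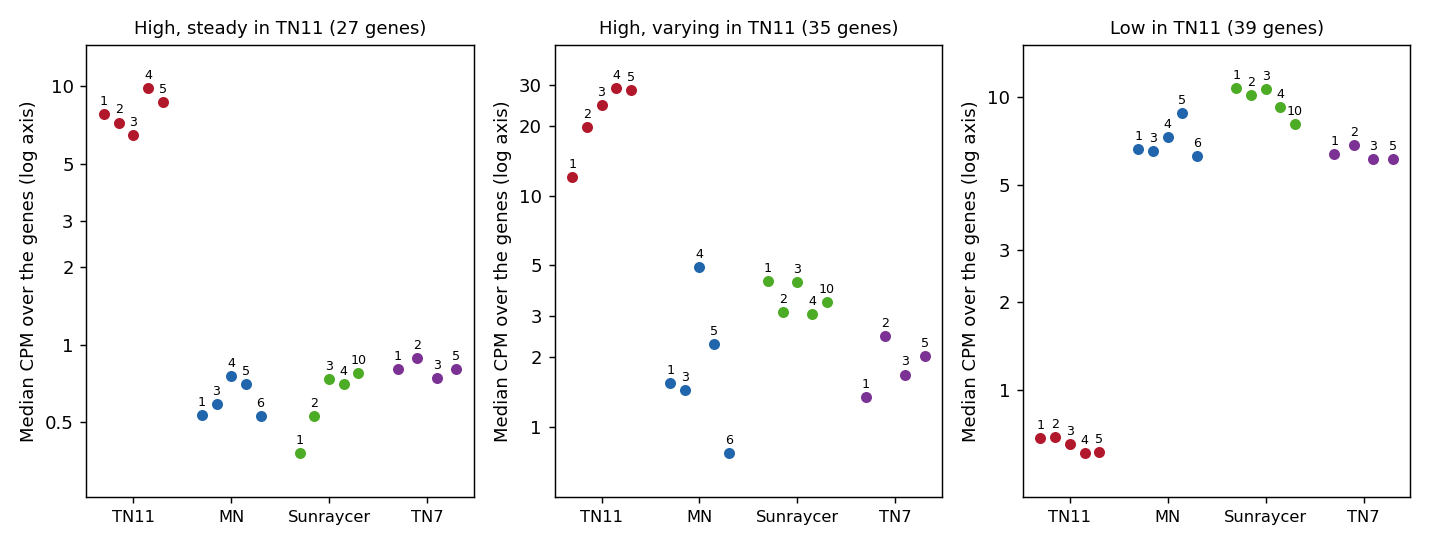
Median CPM over the 27 steady, 35 varying and 39 low genes in each library (log axis), with the replicate number above each point. TN11 1 is lowest in TN11 for the varying genes (12.01 CPM, the others 19.7 to 29.1 CPM), and MN 4 is highest in MN (4.92 CPM).

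The rule was then applied without 1 library at a time, and the level of that library, which had no part in the choice, was set against the 3-fold limit. A TN11 library left out is still of the same accession, so the shares describe how alike the TN11 libraries were. No share over all tested genes was computed. For the low genes, 81.8% to 92.3% of those chosen without a TN11 library were at least 3-fold lower in it. For the high genes the share depended on the library. It was 86.2% (50 of 58) for TN11 4 and 84.5% (49 of 58) for TN11 5, but 68.8% (44 of 64) for TN11 3, 62.3% (43 of 69) for TN11 2 and 35% (28 of 80) for TN11 1. In TN11 1 the median of the 80 genes was 2.06 times the largest other mean, and 12 of them lay below it. Without TN11 1 the rule took 80 high genes, 60 of which were among the 62, and 52 of the 62 had every remaining TN11 library above all others, as did 2.5% of tested genes.

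MN minus Sunraycer is a contrast the rule did not use, and it shows how far the nectarines differ from each other in these genes. With edgeR's quasi-likelihood test, at an adjusted p under 0.05 and at least 2-fold, 38 of the 101 genes were called: 11 higher and 27 lower in MN. Of all tested genes 25.2% were called, 8.41% higher and 16.8% lower. Among the high genes 29 of 62 were called (46.8%), 7 higher and 22 lower, with a median log2 fold change of -0.66, against 0.04 over all tested genes. Among the low genes 9 of 39 were called (23.1%), 4 higher and 5 lower, with a median of -0.10, a share close to that of all tested genes. The high genes with next to no reads in the nectarines are among those counted. In a fit of MN and Sunraycer alone, with the filter on low counts set by these libraries, 48 of the 62 high genes were tested and 19 were called (39.6%), 3 higher and 16 lower. Of all genes tested there 23.4% were called, 7.15% higher and 16.2% lower. All 39 low genes were tested and 7 called, 3 higher and 4 lower.

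The varying genes leaned to Sunraycer: 14 of 35 were lower in MN and 1 was higher, and 27 of 35 had a negative fold change, with a median of -0.91. The steady genes were called both ways, 6 higher and 8 lower of 27, with a median of -0.19. In the fit of MN and Sunraycer alone, 11 of 31 varying genes tested were lower in MN and 1 was higher, and of 17 steady genes tested 5 were lower and 2 higher. The nectarines also differed in the main direction of spread within accessions: MN scored -1.63 to -0.279 and Sunraycer 0.360 to 2.57 on it, without overlap, and with that score as a covariate 9 of the 101 genes were called, 2 higher and 7 lower in MN, where 4.35% of all tested genes were called, 1.49% higher and 2.86% lower. Of the varying genes 1 was called in that fit. A difference between MN and Sunraycer that runs along this direction cannot be told apart from it in these libraries. For TN11, whose distance from the others chose the genes, the covariate gave these values as a description. The median log2 difference of the high genes was 3.17 in place of 3.40 against MN, 2.65 in place of 2.30 against Sunraycer and 3.01 in both fits against TN7. That of the low genes was -3.70 in place of -3.40 against MN, -3.30 in place of -3.92 against Sunraycer and -2.999 in place of -2.989 against TN7.

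**Figure D4:**
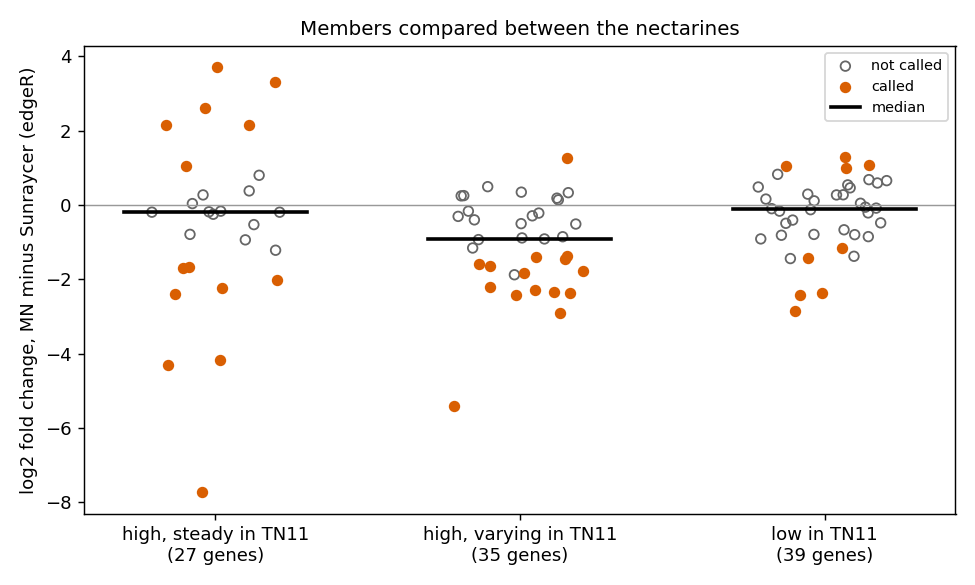
Log2 fold change of MN minus Sunraycer (edgeR) for each gene in the steady, varying and low sets; filled points were called, open points were not, and the line is the median of the set. Of the varying genes, 14 were called lower in MN and 1 higher; the low genes centre near 0 with a median of -0.10.

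Of the 101 genes, the one that differed most between the nectarines was Prupe.7G044600.v2.1, with reads in TN11 and Sunraycer only, apart from 1 count. It had 15.03, 9.74, 10.3, 11.5 and 14.1 CPM in TN11, 1 count over the MN libraries, 0.868, 2.00, 4.37, 4.38 and 3.63 CPM in Sunraycer and none in TN7. The ratio of Sunraycer to MN was 309 (95% counting interval 55.1 to 12260), and MN was lower than Sunraycer in edgeR's quasi-likelihood test (adjusted p = 6.82e-07), with every MN library below every Sunraycer library. MN, with 1 count, and TN7, with none, are a nectarine and a peach both stated to be Gg. A link of this gene to the G genotype was not tested.

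Prupe.1G509800.v2.1 had 1.01, 1.78, 3.38, 3.70 and 4.12 CPM in TN11, 2 counts over MN, 0.403 to 1.41 CPM in Sunraycer and 0.402 to 0.792 CPM in TN7. MN was lower than Sunraycer in all libraries (edgeR adjusted p = 1.57e-05) and stood apart from the rest, since TN7 and Sunraycer overlapped. In Prupe.2G045000.v2.1 MN had reads in MN 5 alone, at 0.166 CPM, against 0.163 to 1.31 CPM in Sunraycer (log2 fold change -4.17, SE 0.80, edgeR adjusted p = 0.000456). TN11 had 4.65 to 10.1 CPM and TN7 0.940 to 2.36 CPM of that transcript. Neither gene passed the filter on low counts in the fit of MN and Sunraycer alone. Their p-values come from the joint fit, whose filter also used TN11 and TN7, so these calls are given as a description.

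In the other direction, Prupe.7G014000.v2.1 had 0.712, 1.13, 0.898, 0.82896 and 0.768 CPM in MN and 0.109, 0.245, 0.134, 0.0504 and 0.298 CPM in Sunraycer. It was higher in MN in every library (log2 fold change 2.16, SE 0.42, edgeR adjusted p = 0.000541), a call lost with the score as a covariate (edgeR adjusted p = 0.188). TN11 had 1.88 to 5.13 CPM and TN7 0.148 to 0.581 CPM. The 4 remaining named genes passed the filter on low counts through TN11 alone and had next to no reads in a nectarine, so their calls are not read as differences. Prupe.5G032000.v2.1 had 8 counts over MN and none over Sunraycer, and Prupe.7G070100.v2.1 had 6 over MN and none over Sunraycer. Prupe.8G270900.v2.1 had 11 counts over MN and 1 over Sunraycer. Prupe.1G094800.v2.1 had none over MN and 10 over Sunraycer, most of them in Sunraycer 4.

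Against TN7, 21 of the 101 genes were called in MN (10.3% of tested genes), 12 higher and 9 lower, and 29 in Sunraycer (16.2% of tested genes), 23 higher and 6 lower. For the high genes the rule limits TN7 against the nectarines. For the low genes it asks each of MN, Sunraycer and TN7 for 2 CPM and sets TN11 against the smallest. TN7 was the smallest in 16 of the 39, so the counts against TN7 are a description on both sides. Of the 39 low genes, 8 were higher in MN than in TN7 and none was lower, where 2.73% of tested genes were higher and 7.59% lower. Same-numbered libraries of MN and TN7 deviated together, and with the number as a block 17 of the 101 genes were called (7.85% of tested genes). Of the low genes 7 were then higher in MN and none lower, where 2.2% of tested genes were higher and 5.66% lower. In Sunraycer 10 low genes were higher than in TN7 and 2 were lower, where 9.71% of tested genes were higher and 6.45% lower. Both comparisons use the TN7 libraries.

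In 6 of the 39 low genes MN and Sunraycer were each called higher than TN7, as were 1.1% of tested genes. The rule already set TN11 below TN7 in them. They were picked after their values were seen. Prupe.8G122700.v2.1 had 2.12, 1.56, 1.92, 1.09 and 1.66 CPM in TN11, against 14.3 to 18.8 CPM in MN, 11.3 to 16.1 CPM in Sunraycer and 7.55, 6.85, 7.52 and 5.78 CPM in TN7. MN was higher than TN7 (log2 fold change 1.26, SE 0.16, edgeR adjusted p = 1.37e-05) and so was Sunraycer (log2 fold change 1.14, SE 0.16, edgeR adjusted p = 3.5e-05), in every library. The groups formed 3 levels without overlap: TN11, then TN7, then both nectarines.

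Prupe.7G165900.v2.1 followed the same order, with 1.74 to 3.12 CPM in TN11, 23.1 to 67.9 CPM in MN, 33.1 to 89.3 CPM in Sunraycer and 6.14 to 22.1 CPM in TN7. MN was higher than TN7 (log2 fold change 1.82, SE 0.38, edgeR adjusted p = 0.00248), as was Sunraycer (log2 fold change 2.67, SE 0.40, edgeR adjusted p = 8.26e-05). Prupe.7G153300.v2.1 had 1.41 to 3.59 CPM in TN11, 35.5 to 94.7 CPM in MN, 21.2 to 67.8 CPM in Sunraycer and 11.1 to 28.9 CPM in TN7, and TN7 overlapped Sunraycer there. The other genes of this kind were Prupe.5G185100.v2.1, Prupe.6G006300.v2.1 and Prupe.6G057700.v2.1. In the last of them TN7 reached down to TN11, with 0.849 to 4.73 CPM against 0.423 to 0.900 CPM in TN11.

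Gene identifiers give the chromosome and the order of genes along it, which the rule did not use. Of the 39 low genes, 12 lay on chromosome 3 (30.8%, against 11.7% of tested genes), 7 on chromosome 5 (17.9%, against 9.47%) and 1 on chromosome 2 (2.56%, against 12.1%). The high genes were spread more evenly, with 12 on chromosome 6 (19.4%, against 13.8%), 10 on chromosome 7 (16.1%, against 10.3%), 10 on chromosome 8 (16.1%, against 9.98%) and 4 on chromosome 3 (6.45%). Among the low genes, 7 of 39 (17.9%) had another low gene within 10 places in gene order, against 2.56% of tested genes. Among the high genes 7 of 62 (11.3%) had another high gene within 10 places, against 4.40%. The contrast was smaller within 50 places. There the share was 25.6% for the low genes, against 12.7% of tested genes, and 25.8% for the high genes, against 19.2%. Near-identical copies and overlapping genes could share reads, and genes that lie together are not independent of one another.

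The close groups are named after their positions were seen. On chromosome 3, Prupe.3G236200.v2.1, Prupe.3G236800.v2.1 and Prupe.3G237000.v2.1 were low together. Prupe.3G236800.v2.1 had 0.188 to 0.823 CPM in TN11, against 3.30 to 5.18 CPM in MN, 3.33 to 5.84 CPM in Sunraycer and 7.28 to 10.99 CPM in TN7. Prupe.3G237000.v2.1 had 0.423 to 1.14 CPM in TN11 and 1.84 to 5.90 CPM in the others. TN11 was below every other library in each of the 3 genes.

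On chromosome 6, Prupe.6G139200.v2.1 and Prupe.6G139300.v2.1 were direct neighbours, the only such pair among the 101, with Prupe.6G139800.v2.1 near them. Prupe.6G139200.v2.1 had 61.9, 130, 144, 188 and 165 CPM in TN11, against 6.05 to 34.0 CPM in MN, 30.3 to 66.5 CPM in Sunraycer and 11.98 to 23.7 CPM in TN7. Prupe.6G139800.v2.1 had 6.03, 20.4, 23.8, 32.7 and 26.5 CPM in TN11, against 1.54 to 7.52 CPM in MN, 2.44 to 4.23 CPM in Sunraycer and no count in TN7. Prupe.6G139300.v2.1 had 1.27 to 6.71 CPM in TN11, 0.0593 to 2.69 CPM in MN, 0.504 to 1.01 CPM in Sunraycer and again no count in TN7. All 3 belong to the varying genes, with TN11 1 lowest in TN11 and MN 4 highest in MN, and TN7 lacked reads for 2 of them but not for the first.

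Genes outside the set were also counted by their place. Within 10 places of a high gene, 7 of 843 other tested genes were called higher in TN11 than in each accession (0.830%, against 0.680% of all genes outside the set). Within 10 places of a low gene, 7 of 488 were called lower than in each (1.43%, against 0.457%). The share was thus near that of all genes on the high side and above it on the low side, where the count is small.

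**Figure D5:**
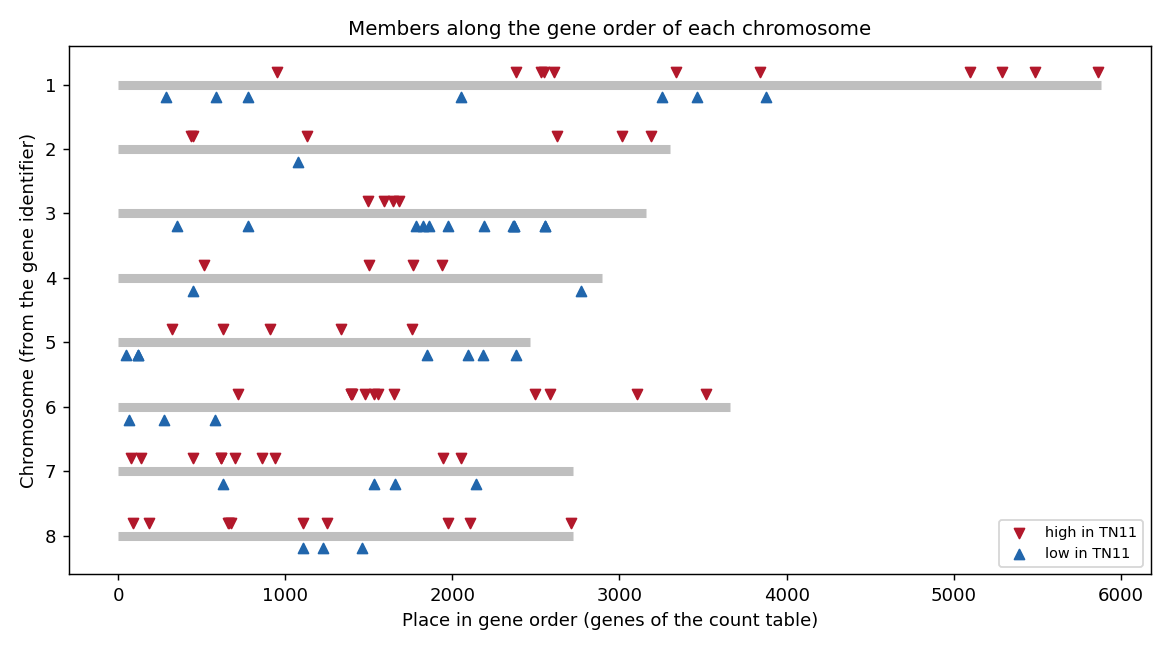
Place of the 62 high genes (above the bars) and the 39 low genes (below) in the gene order of the 8 chromosomes, taken from the identifiers; the x axis counts genes of the table. On chromosome 3, 12 low genes stand beside 4 high genes.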

How the data were processed

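Expected counts per gene were deposited by the authors for 19 libraries; they were rounded to whole numbers before use, which changed 0 values. The submitters' processing notes list R 4.1.1, DESeq2, Bowtie2 2.5.1 and RSEM 1.2.31 without saying what each was used for. Not given in the sources used here are the genome build, strand setting, read filters and the treatment of reads shared by close copies, so near-identical, overlapping and antisense genes are uncertain. Replicate 4 of TN7 was not analysed here.

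CPM used raw library totals. The fit used edgeR 4.0.16 in R 4.3.3 (TMM, filterByExpr, glmQLFit, glmQLFTest), with one mean per accession over all 19 libraries and no block. Calls required a Benjamini-Hochberg adjusted p below 0.05 over 19360 genes and a 2-fold difference. Alternatives used DESeq2 1.42.0, limma 3.58.1 and the settings given in the closing section, which does not list the call counts of DESeq2 and limma. The fit was also run on simulated data, and the result of that run is not given here.

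The members and lists were chosen with earlier results of these data known. Named genes are the 12 highest and 10 lowest ratios, the 6 highest means per side, the 2 genes on each side of each limit and the 4 largest called MN minus Sunraycer differences per direction; others are said to be chosen after their values were seen. Lists of gene families and tissue markers could not be applied, because 0 identifiers matched the reference table. MN and TN7 libraries of the same number deviated together (correlations 0.419 to 0.486), a pairing taken from the data alone; no other accessions did so at every number. No libraries of an accession agreed within sampling noise (smallest chi-square per degree of freedom 7.13). Intervals and floors cover counting error only.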

Additional observations from a re-analysis of the deposited data

Results flagged for a closer look

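The named genes and the summed CPM of the high and of the low genes gave 160 groups of 4 or 5 libraries. In 14 of them a library lay far from the others of its accession on the log2(CPM + 0.5) scale. Chance alone gives about 1 in 20 for normally distributed values, a rate that does not hold for groups at or near 0 counts. Several of the 14 are 1 to a few counts beside libraries at or near 0. They are Prupe.2G112900.v2.1 in MN 4 (0.189 CPM), Prupe.1G094800.v2.1 in Sunraycer 4 (0.403 CPM) and TN7 5 (0.0535 CPM), Prupe.7G070100.v2.1 in TN7 2 (0.0493 CPM) and Prupe.8G270900.v2.1 in Sunraycer 2 (0.0409 CPM). The others of that kind are Prupe.5G012100.v2.1 in TN11 4 (0.0436 CPM), Prupe.1G325500.v2.1 in TN11 3 (0.0939 CPM), Prupe.5G011800.v2.1 in TN11 1 (0.265 CPM), Prupe.7G044600.v2.1 in MN 5 (0.0414 CPM) and Prupe.2G045000.v2.1 in MN 5 (0.166 CPM).

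The other 4 are at higher levels. Prupe.4G051400.v2.1 had 99.2 CPM in TN11 1 and 211 to 285 CPM in the other TN11 libraries. Prupe.6G155500.v2.1 had 14.7 CPM in TN7 5 and 22.02 to 22.4 CPM in the other TN7 libraries. Prupe.5G237800.v2.1 had 127 CPM in MN 4 and 199 to 219 CPM in the other MN libraries. Prupe.3G035000.v2.1 had 4.04 CPM in TN11 3 and 9.001 to 11.9 CPM in the other TN11 libraries.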

How the results depend on the processing

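With a fold limit of 4 the rule took 34 high genes in place of 62, and with a minimum mean of 5 CPM it took 18 low genes in place of 39. With the score on the first direction of spread as a covariate, 9 genes were called in MN minus Sunraycer in place of 38. Leaving out each library in turn gave 58 to 80 high genes, 37 to 44 low genes, and 31 to 44 calls in MN minus Sunraycer, 16 to 26 in MN minus TN7 and 24 to 35 in Sunraycer minus TN7. Blocking on the replicate number gave 28, 17 and 28 calls in these comparisons, against 38, 21 and 29 without it. Without Sunraycer 1 and TN7 5 together, a setting chosen after seeing the data, the rule took 67 high and 43 low genes and the calls were 32, 19 and 30. The 38 named TN11 differences had 798 values under the alternatives, of which 747 moved by less than 1 SD and 51 by more. Their direction follows from how the genes were chosen. The SD is that between the TN11 libraries of a gene on a log scale, so it is wide for the varying genes. Each value compares TN11 with the nearest accession, and many alternatives left out 1 library. Leaving out a library of another accession cannot move such a value unless the nearest accession changes. The count of 747 thus does not measure how steady the differences are. The 8 named MN minus Sunraycer differences had 210 values, of which 19 lost their call and 0 changed sign. Settings in which a gene was not tested are not among the 210 and do not count as a lost call. The named genes with next to no reads in a nectarine, whose calls are not read as differences, are among the 8. Prupe.8G270900.v2.1 lost its call most often, in 11 settings. Levels under a few counts per library limit the folds of the genes nearest 0.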

Other observations

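Some genes of the set varied widely between libraries of 1 accession, and they were picked for this after their values were seen. Prupe.5G062700.v2.1, a high gene, had 28.3, 49.5, 48.2, 3.70 and 3.51 CPM in TN11 libraries 1 to 5, against 0 to 7.34 CPM in MN, 3.63 to 7.44 CPM in Sunraycer and 0.179 to 8.45 CPM in TN7. TN11 4, the highest TN11 library for most varying genes, and TN11 5 were its lowest TN11 libraries. Prupe.3G219100.v2.1, a low gene, had 10.1, 21.8, 10.8, 1.44 and 1.99 CPM in TN11, against 1.01, 0.498, 211, 78.4 and 12.6 CPM in MN libraries 1, 3, 4, 5 and 6, 61.4 to 207 CPM in Sunraycer and 2.86, 12.8, 17.9 and 87.2 CPM in TN7 libraries 1, 2, 3 and 5. Prupe.1G387500.v2.1, also low, had 0.0474 to 0.986 CPM in TN11, 0 to 13.0 CPM in MN, 3.56 to 17.9 CPM in Sunraycer and 0.0447 to 51.6 CPM in TN7, where TN7 5 alone carried most of the mean. In all 3 genes TN11 overlapped other accessions.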
